A study of Rattus norvegicus with 42 samples.

Results

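The silica effect in the lung of regular-diet rats was compared between 3 and 9 months after exposure. The members were the 20 regular-diet rats of the 42 rats in the series, chosen by their diet label. They were male Fischer 344 rats bought at 3 months of age, fed a diet with 18% of its energy as fat from 2 weeks before exposure until sampling. There were 4 air rats and 5 silica rats sampled 3 months after exposure, and 6 air rats and 5 silica rats sampled 9 months after exposure. The silica rats breathed crystalline silica at 15 mg/m3 for 6 hours a day on 5 days in whole-body chambers, and the air rats breathed air. The other 22 rats of the series ate a high-fat diet and enter only as a comparison at the end. Each rat gave 1 library of total RNA from a piece of lung, so a library mixes the cells of that piece. Rats of the 2 times differ in age, and each time has its own count table, so 9 months was never tested directly against 3 months. What was tested is the change of the silica effect: the log2 difference between silica and air at 9 months minus the same difference at 3 months, called "the change" below, given with its standard error (SE).

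Inhaled crystalline silica is taken up by alveolar macrophages, which cannot digest it, and the particles damage their lysosomes. The dying cells release signals that bring in neutrophils and monocytes, and because the particles stay in the lung, inflammation goes on after exposure has ended. The lasting disease, silicosis, is known for nodules of macrophages and collagen, surfactant build-up, and growth of the type 2 cells that line the alveoli.

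Library totals ran from 4332873 to 8258098 counts in the 20 rats, and the ranges of the 4 groups overlapped. Markers of lung tissue were present in each rat: the summed level of 6 type 2 cell markers lay between 15910 and 32540 CPM (counts relative to the scaled library size). The lowest chi-square per degree of freedom between libraries was 2.73 over 41 pairs within a group, so no library was a copy of another. A gene was called when its adjusted p (edgeR quasi-likelihood test, Benjamini-Hochberg over 15759 genes) was below 0.05.

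The change was called for 1068 genes. The silica effect was higher at 9 months for 584 of them (3.71% of the genes tested) and lower for 484 (3.07%). Leaving out 1 rat at a time gave 298 to 746 higher and 303 to 787 lower; the lowest counts were without air rat 42 of 3 months (298) and without silica rat SO_09_117 of 9 months (303), the highest lower count without silica rat 43 of 3 months (787). At least a 2-fold change was seen for 102 genes upward and 30 downward. Of the 584 genes, 345 stood above air at both times and farther above it at 9 months, and 239 had opposite signs at the 2 times. Of the 484 genes, 310 stood below air at both times and farther below it at 9 months, 159 went from above air to below it, and 15 stayed above air with a smaller difference. No called gene had a fall that shrank. Most opposite signs rest on 1 called time point: both times were called with opposite signs for 13 genes in each direction. The silica effect alone was called for 1820 genes upward (11.5%) and 1080 downward (6.85%) at 3 months, and for 3737 upward (23.7%) and 3229 downward (20.5%) at 9 months. The median change over all genes tested was -0.0067.

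**Figure D1:**
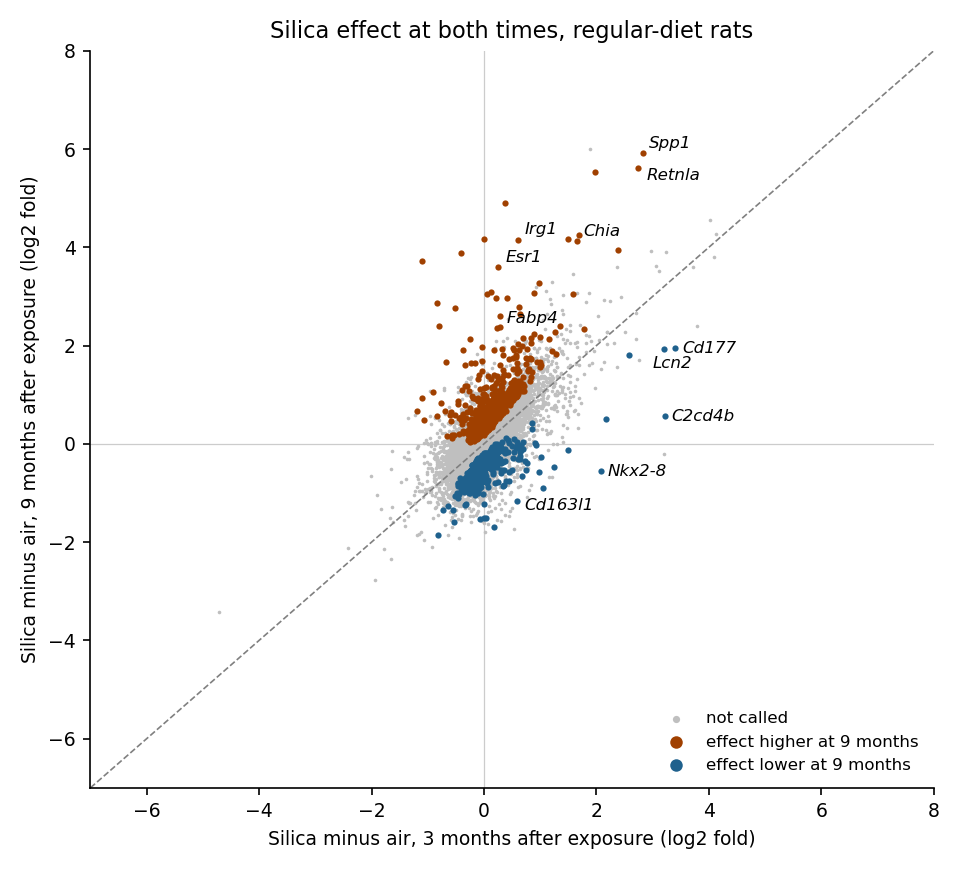
Each point is a gene with more than 3 counts in every group (15712 genes), with the log2 silica minus air difference at 3 months on the x axis and at 9 months on the y axis; the dashed line marks equal effects. Brown points (582 genes) had a higher and blue points (484 genes) a lower silica effect at 9 months, and the labelled genes Esr1, Spp1, Retnla, Chia and Irg1 lie far above the line while Cd177, Lcn2, C2cd4b and Nkx2-8 lie below it.

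A property of the libraries moved with the same contrast and stands before the genes. The share of counts on the ribosomal RNA symbols Rnr1 and Rnr2, which depletion is meant to remove, averaged 1.26% ± 0.32 (SD, n = 4) for the air rats and 0.981% ± 0.295 (n = 5) for the silica rats of 3 months. For the 9-month rats the means were 1.22% ± 0.70 (n = 6, air) and 3.67% ± 1.07 (n = 5, silica). The 5 silica rats of 9 months ranged from 2.60% to 5.35%, above every other regular-diet rat. The difference of differences was 2.73 percentage points (two-sided exact permutation test, p = 0.000481). With the log2 share as a covariate in the model, 50 genes were called higher and 27 lower, of which 46 and 26 were among the 584 and 484. Over the 1068 genes the median size of the change went from 0.486 to 0.431 and its median SE from 0.123 to 0.161. The sign was the same for 1067 of them. These genes were picked by the fit without the covariate on the same counts, so this is not a separate test. In a model of the 4 regular-diet groups alone, 255 genes were called higher and 216 lower. Of the 98 called genes that the naming rule picked, 23 were called under every alternative run: Esr1, Retnla, Chia, Fabp4, Apoe, Abca1, Siglec1, Ncf1, C4b, Kng1l1, Hhip, Tmtc1, Pkhd1 and Col16a1 with a higher effect at 9 months, and Lpl, Cd177, Cd163l1, Nkx2-8, Gpt, Kifc2, Pxdc1, Mxra8 and Col3a1 with a lower one. The account below also names genes outside these 23. Each other named gene lost its call with the covariate, apart from Kng1, which lost it in the 4-group model. Whether the ribosomal share had a part in any change was not tested further.

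**Figure D2:**
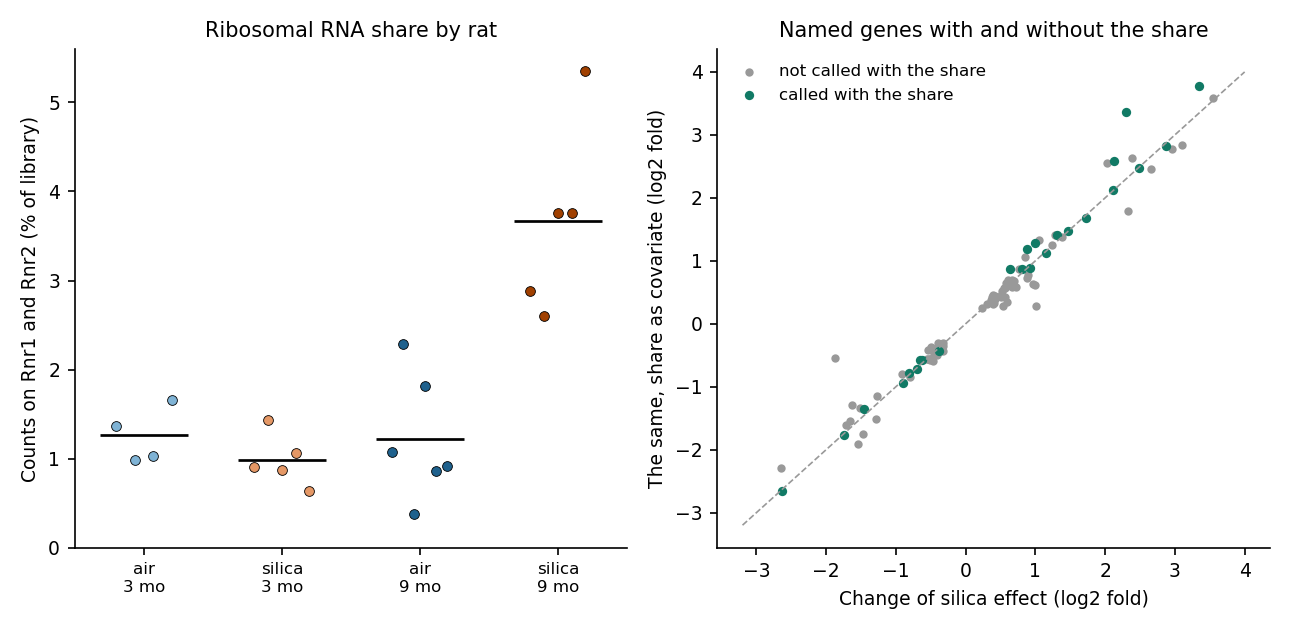
Left, the share of counts on Rnr1 and Rnr2 in each of the 20 rats, in percent, with group means as bars; the 5 silica rats of 9 months (2.60% to 5.35%) lie above all others. Right, the change of the silica effect of the 96 called named genes other than Rnr1 and Rnr2, without (x axis) and with (y axis) the share as covariate, in log2 units; most points follow the dashed line of equal values, and the 24 genes called with the covariate are green.

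The change with the smallest p was in Esr1, the gene of estrogen receptor alpha, a hormone-activated transcription factor. Its level was 4.48, 4.8, 6.76 and 7.36 CPM in the air rats and 5.06, 5.58, 6.93, 8.42 and 9.21 CPM in the silica rats at 3 months. At 9 months it ranged from 5.72 to 7.78 CPM in air (median 7.36), and was 59.4, 68.1, 75.1, 106.4 and 118.97 CPM with silica. The silica rats of 9 months stood apart from all other rats, and the other 3 groups overlapped. The silica effect was 0.26 ± 0.24 at 3 months (adjusted p = 0.495) and 3.61 ± 0.16 at 9 months, a change of 3.35 ± 0.30 (adjusted p = 1.4e-09).

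Of the genes of macrophages that handle lipid and debris, Spp1 and Fabp4 were among the largest rises. Apoe, Abca1, Siglec1 and Olr1, given below, had smaller changes. Spp1 encodes osteopontin, a secreted matrix-binding protein of activated macrophages. It was at 2.43, 2.47, 2.55 and 3.27 CPM in air and at 8.52, 12.9, 14.2, 22.4 and 39.7 CPM with silica at 3 months, and at 1.81 to 10.6 CPM in air (median 3.82) and 173, 256, 294, 310 and 329 CPM with silica at 9 months. Silica and air rats were separate at both times, and the distance between them was larger at 9 months, with a change of 3.10 ± 0.82 (adjusted p = 0.0162). Without the air rat 42 of 3 months that adjusted p was 0.0627.

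Fabp4, a fatty acid binding protein of macrophages and fat cells, did not part silica from air at 3 months: 17.8, 19.1, 21.3 and 26.7 CPM in air and 18.5, 19.8, 20, 34.6 and 37.6 CPM with silica. At 9 months the air rats held 15.5 to 30.1 CPM (median 20.7) and the silica rats 85.4, 89.5, 97.8, 125.4 and 141.2 CPM. The groups overlapped at 3 months and were separate at 9 months, a change of 2.11 ± 0.27 (adjusted p = 3.36e-06). Summed adipocyte markers were at 1.05 CPM or less in every rat. Apoe, which carries cholesterol out of cells, changed by 0.88 ± 0.17 (adjusted p = 0.00144), with silica effects of -0.04 at 3 months and 0.85 at 9 months. Abca1, the transporter that loads cholesterol onto such carriers, changed by 0.63 ± 0.12 (adjusted p = 0.000601), from -0.16 to 0.48. Siglec1, a sialic acid receptor of macrophages, changed by 1.00 ± 0.21 (adjusted p = 0.0023), and Olr1, a receptor for oxidised lipoprotein, by 0.66 ± 0.17 (adjusted p = 0.0119; 0.0593 without air rat 40 of 3 months). Lpl, the lipase that frees fatty acids from lipoproteins, went the other way and is described with the shrinking effects.

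Of 19 tested osteopontin and lipid-handling macrophage genes, 4 changed upward and 1 downward, with a median change of 0.07. Over all genes tested 3.71% changed upward and 3.07% downward, and each list count here and below stands beside these shares. The list of alveolar macrophage genes had 3 of 13 upward and none downward, with a median of 0.43. The cholesterol efflux list had 2 of 9 upward and 1 downward. The summed level of 4 alveolar macrophage markers was 80.3 to 95.6 CPM in air and 159 to 235.5 CPM with silica at 3 months, and 120.5 to 154 CPM in air and 260 to 360 CPM with silica at 9 months. In whole lung, more macrophages and more RNA of a gene per macrophage cannot be told apart.

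The alternative activation genes, a group that macrophages and epithelium raise under type 2 cytokines, had 3 of 12 tested members upward and none downward, with a median change of 0.07. Chia, a chitinase made in the lung by secretory and type 2 cells, was at 98.5, 104, 105 and 110 CPM in air and at 212, 213, 231, 404 and 574 CPM with silica at 3 months. At 9 months air rats held 83.3 to 173 CPM (median 125) and silica rats 1288, 1815, 1850.5, 2824 and 3503 CPM. Silica and air were separate at both times, and the change was 2.48 ± 0.37 (adjusted p = 4.88e-05). Retnla, a secreted resistin-like protein, was at 7.28, 7.42, 8.71 and 14.6 CPM in air and 40.1, 42.9, 43.3, 66.1 and 131 CPM with silica at 3 months. At 9 months its level was 3.88 to 12.3 CPM in air (median 6.01) and 243, 293, 298, 368 and 424 CPM with silica. Every silica rat was above every air rat at each time, and the change was 2.87 ± 0.52 (adjusted p = 0.000616). The third member was Fn1, fibronectin, with a change of 0.53 ± 0.13 (adjusted p = 0.00779). Irg1, the enzyme that makes itaconate in activated macrophages, had the largest rise of the naming rule. It was at 0.356 to 2.42 CPM in the 3-month rats, at 0.337 to 1.3 CPM in the 9-month air rats and at 7.58, 9.4, 13.3, 20.2 and 23 CPM in the 9-month silica rats, a change of 3.54 ± 0.94 (adjusted p = 0.0162). That call was lost without air rat 42 of 3 months (adjusted p = 0.0765). The level floor of the naming rule is a mean over all 20 rats. For Irg1 it leans on the 9-month silica rats, so the rank is descriptive only.

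**Figure D3:**
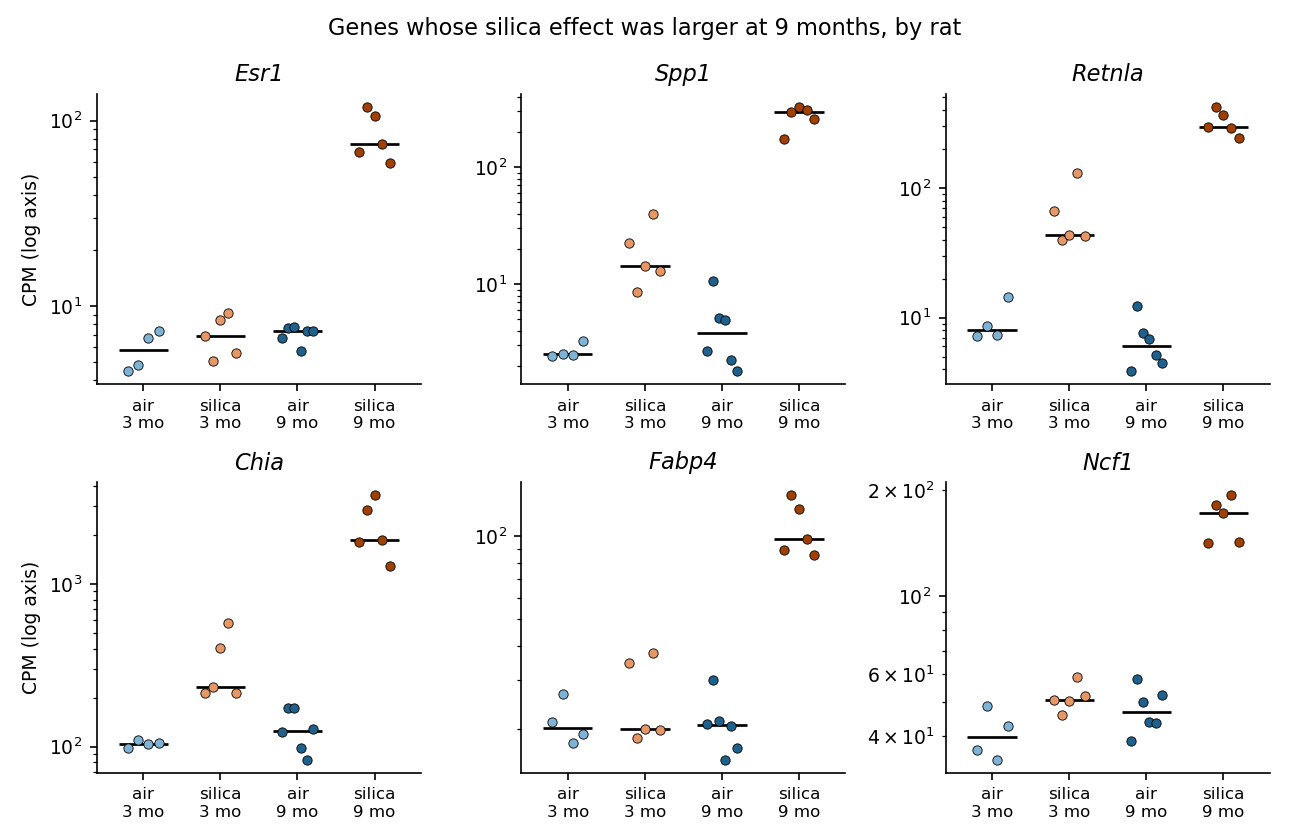
Levels of 6 genes in each of the 20 rats, in CPM on a log axis, with group medians as bars. The 9-month silica rats lie above all other rats in each panel; Spp1, Retnla and Chia also part silica from air at 3 months, where Esr1, Fabp4 and Ncf1 overlap.

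Oxidant-producing enzymes changed in part. Ncf1 encodes p47phox, the organiser of the phagocyte NADPH oxidase. It was at 34.3, 36.6, 42.7 and 48.6 CPM in air and 45.9, 50.4, 50.7, 52 and 58.8 CPM with silica at 3 months, and at 38.6 to 58 CPM in air (median 46.9) and 142, 143, 173, 182 and 194 CPM with silica at 9 months. The groups overlapped at 3 months and were separate at 9 months, with a change of 1.47 ± 0.18 (adjusted p = 2.51e-06). Ncf1 has near-identical copies in some genomes, so reads could be split between copies. Of 6 tested subunits of that oxidase 2 changed upward and none downward, with a median change of 0.12; the other was Rac2 (0.40 ± 0.12, adjusted p = 0.0439). The call of Rac2 was lost in 16 of the 20 fits without 1 rat (largest adjusted p 0.176) and in the 4-group model (0.0988), where Ncf1 kept its call in each. Duox1, the epithelial oxidase that supplies peroxide to the airway surface, changed by 1.28 ± 0.29 (adjusted p = 0.00508). Lpo, the peroxidase that uses this peroxide, had 3 counts in all in the 3-month air rats, so levels replace a fold. It was at 2.92 to 7.23 CPM with silica at 3 months and at 103.9, 111.4, 116.02, 162 and 214 CPM with silica at 9 months, against at most 0.974 CPM in the 9-month air rats. The change of Lpo was not called (adjusted p = 0.556). Slc26a4, the anion exchanger pendrin that feeds the peroxidase with substrate, showed silica effects of 4.03 ± 0.33 at 3 months and 4.56 ± 0.26 at 9 months, a change of 0.53 ± 0.46 that was not called (adjusted p = 0.554).

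Complement, the cascade of plasma and tissue proteins that tags particles and calls in phagocytes, was the list with the most members called upward, 7 of 20 tested and none downward. Its median change was 0.25. C4b, the thioester protein of the classical and lectin pathways, was at 29.7, 30.2, 32 and 40.1 CPM in air and 39, 41.6, 56.1, 61.9 and 66.2 CPM with silica at 3 months. By 9 months the level was 33.6 to 44.2 CPM in air (median 40) and 113.8, 129.1, 171, 182 and 190 CPM with silica. The groups overlapped by 1 rat pair at 3 months and lay far apart at 9 months, a change of 1.31 ± 0.20 (adjusted p = 7.18e-05). C4b and its neighbour C4a are near-identical, so their split is uncertain. Serping1, the inhibitor of the first component, changed by 0.99 ± 0.19 (adjusted p = 0.00135), Cfb, the protease of the alternative pathway, by 0.55 ± 0.13 (adjusted p = 0.00587) and C2 by 0.76 ± 0.20 (adjusted p = 0.0141). Also called, and named after their values were seen, were Cfi (1.48) and Cfp (0.43). With the ribosomal share as covariate 1 of the 7 was called, C4b, and the change of Serping1 was 0.62 (adjusted p = 0.25). The 4-group model called 5 complement genes upward, and leaving out 1 rat at a time gave 4 to 9.

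The kininogens, precursors of kinin peptides, moved beside complement. Kng1l1 was at 9.76, 10.9, 11.2 and 14.6 CPM in air and 11.3, 12.7, 14.5, 14.8 and 14.8 CPM with silica at 3 months. The 9-month rats held 2.23 to 21.3 CPM in air (median 8.68) and 37.7, 39, 42.2, 54.9 and 75.3 CPM with silica, a change of 2.13 ± 0.36 (adjusted p = 0.000236). The groups overlapped at 3 months and were separate at 9 months. Kng1 changed by 2.30 ± 0.56 (adjusted p = 0.00983). The highest Kng1 value among the 9-month air rats was 14.2 CPM in rat SO_09_111, where the others held 2.23 to 3.77 CPM. The summed liver markers Alb and Apoa1 ranged from 11.6 to 998 CPM in the 9-month air rats, and a link to the Kng1 values was not tested. Without rat SO_09_111 the Kng1 change was 2.85 (adjusted p = 0.00032). The symbols belong to near-identical genes, so their reads may be split unevenly.

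Antigen presentation and lymphocyte genes changed for a minority of their lists, beside 3.71% of all genes tested that changed upward. Of 8 tested class II genes, 2 changed upward and none downward, with a median of 0.28. RT1-Bb, a chain of a class II molecule, was at 135.3, 149, 162 and 174 CPM in air and 220, 239, 260, 293 and 297 CPM with silica at 3 months, and at 85.1 to 126 CPM in air (median 106) and 266, 308, 313, 360 and 396 CPM with silica at 9 months. Silica and air were separate at both times, and the change was 0.88 ± 0.15 (adjusted p = 0.000203). The 9-month air rats were the lowest of the 4 groups; air levels of the 2 times come from separate tables, and their gap was not tested. RT1 genes are similar to each other, and reads may be shared between them. Ciita, the activator of class II transcription, changed by 0.56 ± 0.16 (adjusted p = 0.0229), and Cd86, a co-stimulator of T cells, by 0.89 ± 0.18 (adjusted p = 0.002). Of 23 tested T and NK cell genes, 2 changed upward and none downward, with a median of 0.41: Ctla4, the inhibitory receptor (2.02 ± 0.54, adjusted p = 0.0183), and Cd2, an adhesion receptor (0.85 ± 0.26, adjusted p = 0.0364). Fits without 1 rat lost the call of Ciita in 8 of 20 and that of Cd2 in 11 of 20, and the 4-group model called neither of them nor Ctla4. The summed T cell markers were 13.1 to 17 CPM in air and 13.1 to 22.1 CPM with silica at 3 months, and 7.06 to 15.8 and 14.1 to 28.8 CPM at 9 months.

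Genes named for mast cells, the granulated cells of allergic and parasite responses, split. Of 12 listed members 8 passed the filter on low counts. Of these 8, 3 changed upward and 1 downward, and the median change was 1.33. A gene of low counts can pass that filter through the group where it is high, so this count and median are descriptive only. Cpa3, a protease of mast cell granules, was at 0.45 to 1.87 CPM in the 3-month rats and 0.444 to 1.49 CPM in the 9-month air rats, and at 2.84, 4.37, 4.79, 5.71 and 7.42 CPM in the 9-month silica rats. All 5 lay above every other rat, with a change of 2.32 ± 0.52 (adjusted p = 0.0049). Mcpt2, a mast cell protease with close copies, changed by 2.95 ± 0.65 (adjusted p = 0.00373) from 9 counts in all in its lowest group, and Ms4a2, a chain of the IgE receptor, by 2.39 ± 0.52 (adjusted p = 0.0038). Hdc, which makes histamine and is also expressed by neutrophils, changed downward by -0.80 ± 0.18 (adjusted p = 0.00371). The sum of the markers Cpa3, Cma1 and Kit did not follow: it was 258 to 377 CPM in air and 156 to 237 CPM with silica at 9 months. Most of it is Kit (298 CPM in air, 196 CPM with silica on average), which endothelial cells also express.

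A few cell division and epithelial genes had a higher silica effect at 9 months. Of 22 tested cell cycle genes, 3 changed upward and none downward (median 0.29), against 3.71% and 3.07% of all genes tested. Called above air were 16 at 3 months and 18 at 9 months, against 11.5% and 23.7% of all genes tested. Mki67, a marker of dividing cells, was at 27.8, 29, 30.9 and 33 CPM in air and 51.7, 53.2, 58.5, 61.3 and 67.2 CPM with silica at 3 months. The 9-month levels were 28 to 40.7 CPM in air (median 36.4) and 94.8, 105.9, 108.3, 112.6 and 144.7 CPM with silica. The groups were separate at both times, with a change of 0.71 ± 0.16 (adjusted p = 0.00404). Plk1, a mitotic kinase, changed by 1.24 ± 0.34 (adjusted p = 0.0204) and Top2a, which untangles DNA in dividing cells, by 0.53 ± 0.16 (adjusted p = 0.0312). The call of Top2a was lost in 11 of 20 fits without 1 rat and in the 4-group model (adjusted p = 0.061), and its change was 0.28 with the covariate (adjusted p = 0.588). Plk1 lost its call without air rat 40 (0.075) or 41 (0.0509) of 3 months. Muc1, a membrane mucin of type 2 cells, changed by 0.67 ± 0.15 (adjusted p = 0.00537). Bpifb1, a secreted airway defence protein, changed by 2.66 ± 0.76 (adjusted p = 0.0254), and without air rat 42 of 3 months by 2.28 (adjusted p = 0.113) or without air rat 41 by 2.30 (0.0953). Of 14 tested type 2 cell genes 2 changed upward and none downward, with a median of 0.01 and 7 of 14 above 0; Sftpc, the surfactant protein C gene, was not called (-0.40 ± 0.16, adjusted p = 0.12). Hmox1, which breaks down haem under oxidant stress, changed by 0.69 ± 0.19 (adjusted p = 0.0219), a call lost without air rat 40 (0.1) or 42 (0.0971) of 3 months.

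Among the smallest p outside the lists were genes with little or no silica effect at 3 months. Hhip, a decoy receptor for hedgehog ligands, was at 79.6, 81.2, 87.2 and 88.8 CPM in air and 71.2, 78.8, 80, 85.5 and 86.8 CPM with silica at 3 months. Levels at 9 months were 53.1 to 71.4 CPM in air (median 62.2) and 108.3, 109.02, 111.7, 115.96 and 118.4 CPM with silica. The rats overlapped at 3 months and were separate at 9 months, and the change was 0.92 ± 0.12 (adjusted p = 2.51e-06). Tmtc1, a mannosyltransferase of the endoplasmic reticulum, changed by 0.81 ± 0.10 (adjusted p = 2.51e-06), from 0.29 at 3 months to 1.11 at 9 months. Pkhd1, the ciliary membrane protein fibrocystin, changed by 1.72 ± 0.30 (adjusted p = 0.00042). Col16a1, a collagen found at fibril surfaces, was at 142.6, 149, 176 and 184 CPM in air and 144.9, 178, 179, 206 and 246 CPM with silica at 3 months, and at 99.3 to 130 CPM in air (median 111.2) and 257, 281, 296, 299 and 317 CPM with silica at 9 months. Its change of 1.15 ± 0.14 (adjusted p = 2.51e-06) was upward. The collagen list does not hold Col16a1, and its 3 called members changed downward. For Hhip and Col16a1 the air levels at 9 months lay below those at 3 months, a gap between tables that was not tested.

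Some genes of structural cells had lower silica effects at 9 months. Of 12 tested genes of the collagen list, 3 changed downward and none upward (median -0.26), and 10 were called below air at 9 months against 6 at 3 months, while the share of all genes called below air went from 6.85% to 20.5%. Col3a1, a fibrillar collagen, was at 1291, 1301, 1315 and 1396.5 CPM in air and 1148, 1279, 1288, 1378 and 1399 CPM with silica at 3 months. The 9-month rats stood at 662 to 790 CPM in air (median 710) and 502, 525, 528, 569 and 576 CPM with silica. The groups overlapped at 3 months and were separate at 9 months, a change of -0.38 ± 0.08 (adjusted p = 0.00163). The air level at 9 months was itself below that at 3 months, a gap between tables that was not tested. Col5a1 changed by -0.42 ± 0.11 (adjusted p = 0.015) and Col6a2 by -0.32 ± 0.10 (adjusted p = 0.0415), a call lost in 8 of 20 fits without 1 rat and in the 4-group model (0.136). Col1a1 was not called at either time, and its change was -0.16 ± 0.18 (adjusted p = 0.653). Of 16 tested other matrix and crosslinking genes, 2 changed downward, among them Postn, periostin (-0.48 ± 0.11, adjusted p = 0.00685), and 2 upward, Fn1 and Thbs2, a matricellular thrombospondin (1.37 ± 0.33, adjusted p = 0.009).

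Calls were likewise downward in the lists of type 1 cells, which form the gas exchange surface (0 upward, 3 downward of 11), endothelial cells (0 and 3 of 15) and smooth muscle and pericytes (0 and 2 of 10). Their median changes were -0.23, -0.26 and -0.47, and of all genes tested 3.07% changed downward. Leaving out 1 rat gave 1 to 4 downward calls for type 1 cells, 0 to 8 for endothelial cells and 0 to 3 for smooth muscle, and the 4-group model gave 1, 1 and 0. Cav1, the coat protein of caveolae in type 1 and endothelial cells, was at 1082, 1103, 1122 and 1211 CPM in air and 817, 833, 929, 940 and 985 CPM with silica at 3 months, and at 1037 to 1328 CPM in air (median 1170.3) and 560, 635, 709, 748 and 782 CPM with silica at 9 months. Silica rats were below air rats at both times, and the change was -0.46 ± 0.11 (adjusted p = 0.00932). With the ribosomal share as covariate none of these members of the 3 lists was called, and 1 collagen, Col3a1, was. Il33, an alarmin held in the nuclei of type 2 and endothelial cells, changed by -0.42 ± 0.11 (adjusted p = 0.0214), a call lost without silica rat SO_09_115 (0.0557) or SO_09_117 (0.0537) of 9 months. Mxra8 and Pxdc1 had no called effect at 3 months and fell below air at 9 months, with changes of -0.65 ± 0.10 (adjusted p = 7.97e-05) and -0.63 ± 0.09 (adjusted p = 2.42e-05). The summed endothelial markers were 3956 to 4195 CPM in air and 3192 to 3759 CPM with silica at 3 months, and 2808 to 4124 and 1893 to 2881 CPM at 9 months. Fibroblast markers were 640 to 734 and 490 to 629 CPM at 3 months, and 483 to 625 and 311 to 434 CPM at 9 months. CPM are shares of a library, so a rise in other genes lowers them, and the part of this in the falls was not tested.

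**Figure D4:**
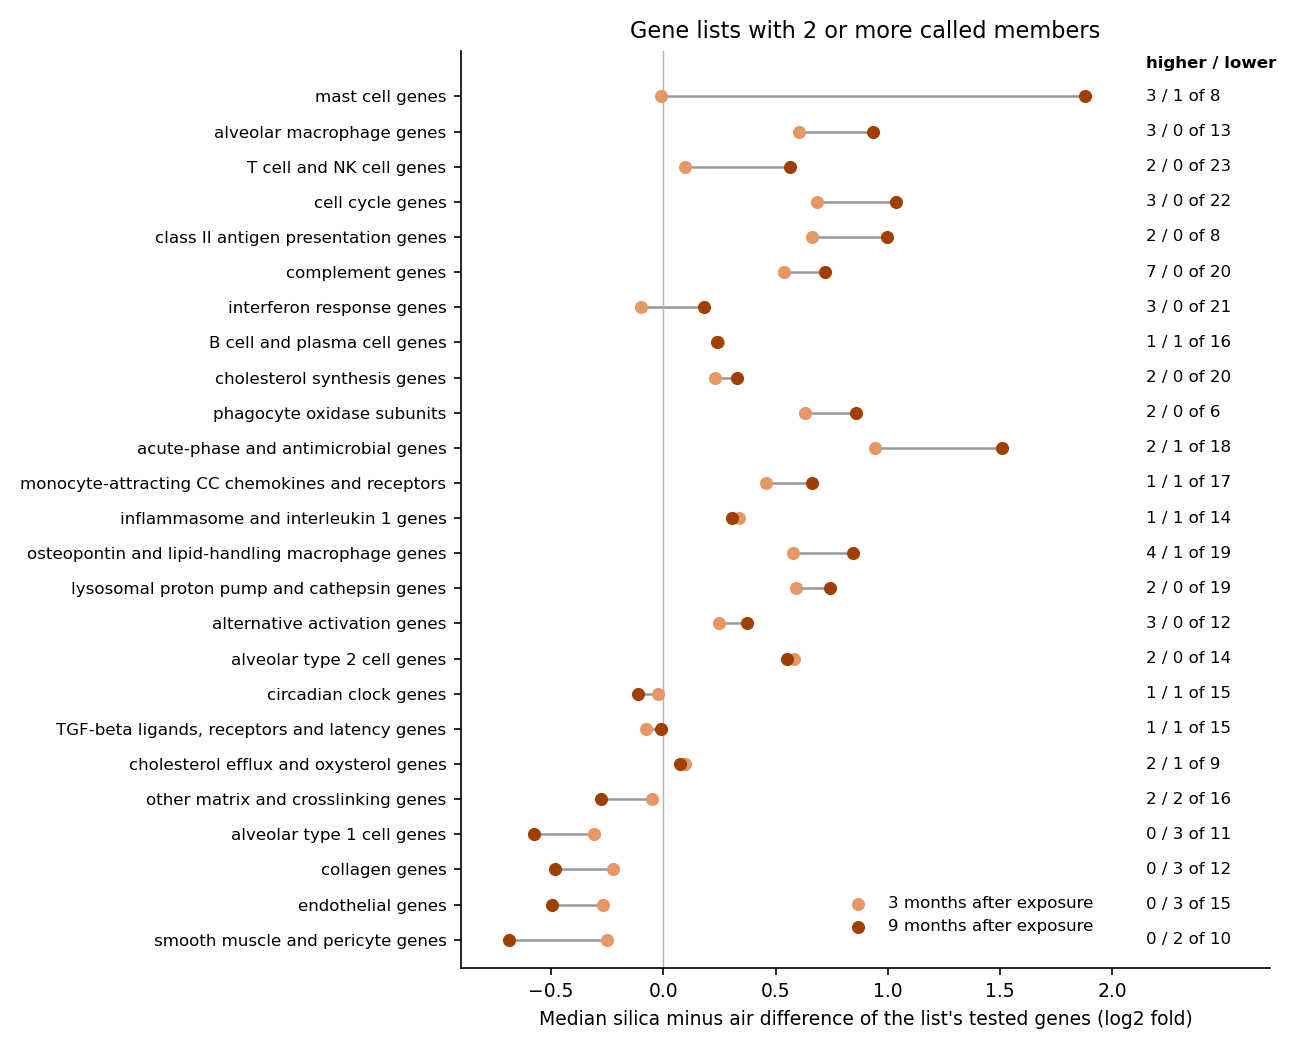
Median log2 silica minus air difference of the tested members of each gene list with 2 or more called members, at 3 months (light) and 9 months (dark), ordered by the median change; the numbers on the right are members changed upward and downward of those tested. Mast cell genes have the widest gap upward, a descriptive value, since genes of low counts can pass the filter through 1 high group. Type 1 cell, collagen, endothelial and smooth muscle lists lie below 0 at both times and lower at 9 months.

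A smaller group of genes stood above air at 3 months and closer to air, or below it, at 9 months. Cd177, a surface protein of neutrophils, was at 1.87, 3.3, 3.63 and 5.73 CPM in air and 33.4, 38.9, 39.9, 40.4 and 43 CPM with silica at 3 months. At 9 months it was at 6.74 to 10.2 CPM in air (median 9.3) and 24.8, 32.1, 32.8, 42.4 and 43.1 CPM with silica. Silica rats were above air rats at both times with similar levels, and the air rats of 9 months lay above those of 3 months. The effect went from 3.41 ± 0.18 to 1.95 ± 0.14, a change of -1.45 ± 0.25 (adjusted p = 0.000244). Lcn2, an iron-binding antimicrobial protein of neutrophils and epithelium, went from 3.20 ± 0.20 to 1.93 ± 0.16, a change of -1.27 ± 0.27 (adjusted p = 0.00293). Its levels were 4.91 to 9.72 CPM in air and 62.5 to 77.6 CPM with silica at 3 months, and 12.8 to 16 and 33.4 to 70.8 CPM at 9 months. For Cd177 and Lcn2 the air levels at 9 months lay above those at 3 months, a gap between tables that was not tested. Cxcl3, a neutrophil attractant, changed by -0.44 ± 0.13 (adjusted p = 0.0367), a call lost in 3 of 20 fits without 1 rat. Of 9 tested neutrophil genes 1 changed downward and none upward, with a median of -0.05. Of 10 neutrophil chemokines and receptors 1 changed downward and none upward, with a median of -0.37. Over all genes tested 3.07% changed downward. The summed neutrophil markers were 513 to 792 CPM with silica at 3 months and 553 to 1453 CPM at 9 months, against at most 175 and 382 CPM in air.

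C2cd4b, a nuclear calcium-dependent factor raised in inflamed endothelium, was at 0.655, 1.15, 1.5 and 2.05 CPM in air and 8.73, 9.85, 11.2, 11.3 and 20.2 CPM with silica at 3 months. At 9 months it was at 0.889 to 2.9 CPM in air (median 2.39) and 2.66, 2.78, 3.18, 4.08 and 4.26 CPM with silica. The separation of 3 months gave way to overlap at 9 months, a change of -2.65 ± 0.53 (adjusted p = 0.00173). Nkx2-8, a homeobox transcription factor, was at 0.751, 0.989, 1.12 and 1.96 CPM in air and 4.04, 4.22, 5.1, 5.73 and 6.25 CPM with silica at 3 months, and at 1.81 to 5.02 CPM in air (median 3.08) and 1.42, 1.55, 2.13, 2.38 and 2.72 CPM with silica at 9 months. It too went from separate to overlapping groups, a change of -2.63 ± 0.43 (adjusted p = 0.000156). Its air levels were mostly higher at 9 than at 3 months, a gap between tables that was not tested.

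Other genes had a lower silica effect at 9 months. Gpt, an alanine aminotransferase, was at 110.6, 120.6, 122.1 and 122.8 CPM in air and 152, 164, 176, 179 and 184 CPM with silica at 3 months, and at 125 to 157 CPM in air (median 148) and 104.4, 113.2, 121.4, 121.5 and 129.7 CPM with silica at 9 months. The effect was above air at 3 months (0.52 ± 0.08) and below it at 9 months (-0.28 ± 0.07), each called, with a change of -0.81 ± 0.11 (adjusted p = 5.4e-06). Lpl showed the same reversal, from 0.53 ± 0.08 to -0.17 ± 0.07, a change of -0.70 ± 0.10 (adjusted p = 5.13e-05). Kifc2, a kinesin, went from 0.65 ± 0.09 to -0.25 ± 0.09, a change of -0.89 ± 0.13 (adjusted p = 2.57e-05), and Cadps2, which primes secretory vesicles, from 0.21 ± 0.06 to -0.28 ± 0.05, a change of -0.49 ± 0.08 (adjusted p = 7.68e-05). Ch25h, which makes the oxysterol 25-hydroxycholesterol, went from 1.50 ± 0.23 to -0.13 ± 0.20, a change of -1.63 ± 0.31 (adjusted p = 0.000815). Cd163l1, a scavenger receptor, had a silica effect of 0.59 ± 0.23 at 3 months (adjusted p = 0.0673) and -1.16 ± 0.23 at 9 months, a change of -1.75 ± 0.33 (adjusted p = 0.000815). Fbp1, an enzyme of gluconeogenesis also made in liver, changed by -1.87 ± 0.52 (adjusted p = 0.0224). Its highest 9-month air value, 12.4 CPM, was again in rat SO_09_111, and without that rat the change was -1.54 (adjusted p = 0.0263). The groups overlapped at 3 months. The call of Fbp1 was lost without silica rat SO_09_117 of 9 months (0.0535) and in the 4-group model (0.0981), and with the covariate the change was -0.54 (adjusted p = 0.745). The remaining large falls of the naming rule were Cd200r1l (-1.71), Sez6l2 (-1.66), Fbxo40 (-1.54), Hapln3 (-1.51), Gtf2a1l (-1.47) and Nptx1 (-1.29), all from levels under 12 CPM. Of these, Cd200r1l was called in all 20 fits without 1 rat, and the other 5 lost their call in 1 to 9 of them.

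**Figure D5:**
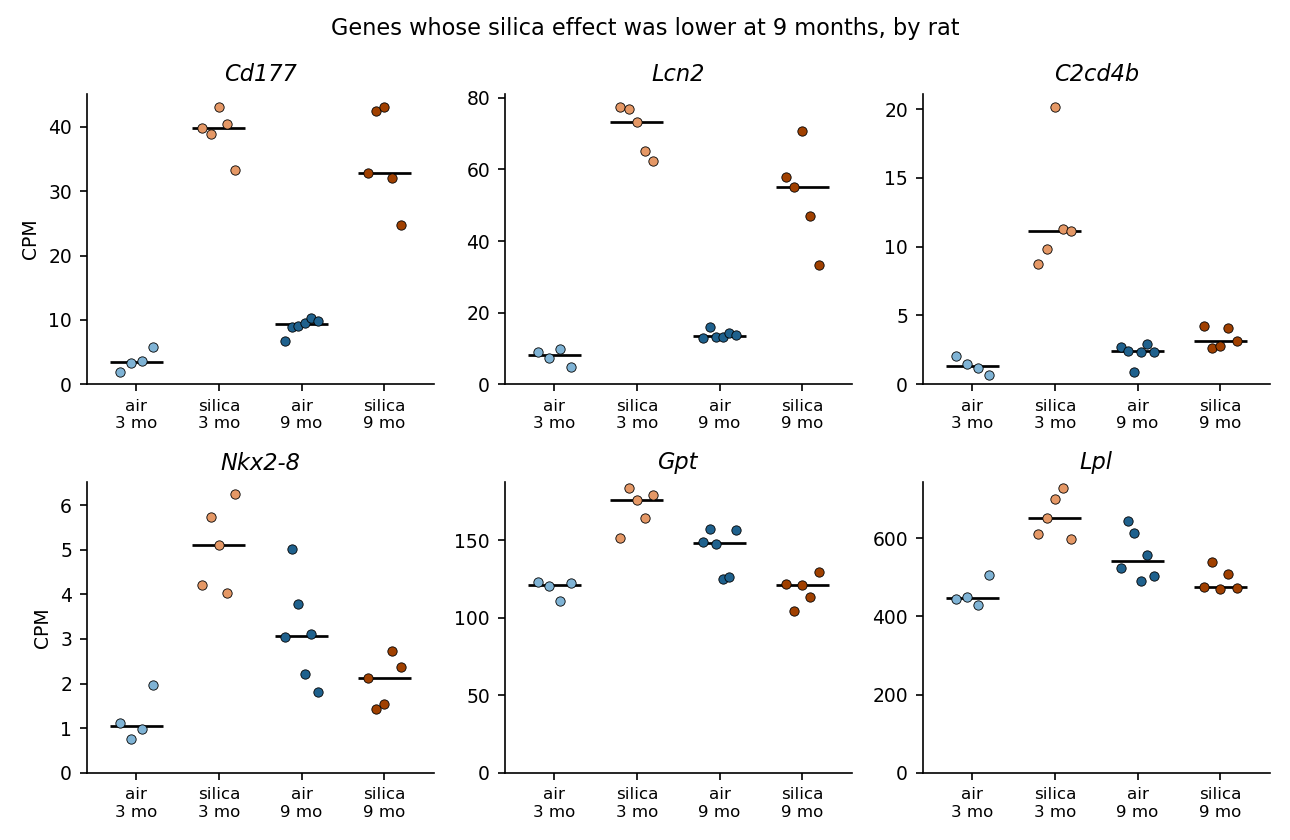
Levels of 6 genes in each of the 20 rats, in CPM from 0, with group medians as bars. Silica rats lie above air rats at 3 months in every panel; at 9 months Cd177 and Lcn2 stay above air with a smaller ratio, and C2cd4b, Nkx2-8, Gpt and Lpl overlap with air.

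Several genes with strong silica effects showed no called change. Ccl2, the monocyte attractant, had effects of 3.07 ± 0.29 and 3.63 ± 0.22, a change of 0.56 ± 0.43 (adjusted p = 0.494). Mmp12, the macrophage elastase, had effects of 3.12 ± 0.34 and 3.51 ± 0.27, a change of 0.39 ± 0.48 (adjusted p = 0.705). A change that is not called does not show equal effects, and these SEs leave room for changes larger than the value given. Dlk1, a Delta-like membrane protein of progenitor cells, had 2 counts in all in the 3-month silica rats. It was at 4.75 to 6.16 CPM in air at 3 months, at 1.11 to 11.1 CPM in air and 0.178 to 1.39 CPM with silica at 9 months, and its change was not called (adjusted p = 0.0888).

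The same contrast in the high-fat rats, which share no animal with the regular-diet rats, was called for 1032 genes upward (6.55%) and 649 downward (4.12%). Both contrasts come from 1 fit with a shared estimate of spread, so the calls of the 2 diets are not independent. Of the 584 regular-diet genes with a higher effect at 9 months, 518 had the same sign and 230 were called in the same direction in high-fat rats, which is 39.4% of the regular-diet genes and 22.3% of the high-fat genes. Of the 484 with a lower effect, 433 had the same sign and 159 were called, 32.9% and 24.5%. No gene was called in opposite directions. The share of all genes tested with the same sign in both diets was not computed, so the same-sign counts here stand without a background. Of the 23 genes called under every alternative, 23 had the same sign and 21 were called in high-fat rats. Esr1 changed by 3.49 ± 0.28 there, Chia by 3.12 ± 0.35, Retnla by 3.25 ± 0.53 and Spp1 by 3.67 ± 0.87. The ribosomal share in high-fat rats changed by 0.01 on the log2 scale (two-sided exact permutation test, p = 0.975), against 2.14 on the regular diet (p = 0.00134). In percentage points it changed by 1.23 in high-fat rats (exact permutation p = 0.0452). Both 9-month groups were high there, at 6.21% ± 1.11 in air and 7.66% ± 0.22 with silica (n = 6 each). The null of these permutation tests is again no silica effect at either time.

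The test of the difference between the diets called 0 genes with edgeR (smallest adjusted p 0.126, 1601 genes at an unadjusted p below 0.05), 4 upward and 8 downward with DESeq2, and 4 and 7 with limma voom. Among named genes, the widest gap was in Ms4a2, with changes of 2.39 on the regular and -0.01 on the high-fat diet, a difference of -2.39 ± 0.66 (adjusted p = 0.195). For Esr1 the difference between the diets was 0.14 ± 0.40 (adjusted p = 0.933).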

How the data were processed

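Lung RNA of the 20 regular-diet rats was analysed in a model with the 22 high-fat rats. The authors deposited raw read counts per gene symbol, 1 table per time point and 1 column per rat. Per the labels' protocols, stranded total RNA libraries were made after ribosomal RNA depletion. Reads were aligned and counted with tools that the submitters' processing notes list as HTSeq 0.6.1, TopHat2 2.0.9, SAMtools 0.1.19, Trimmomatic 0.35, Bowtie2 2.2.9 and bcl2fastq 2.19, on build Rnor 6.0. The strand setting of the counting is not given in the sources used here, so overlapping antisense genes and near-identical copies are uncertain.

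The tables were joined on 30044 shared symbols of 30045 in each. filterByExpr on 8 groups left 15759 genes. Library sizes were scaled with the trimmed mean of M values (TMM), and counts were tested with edgeR 4.0.16 in R 4.3.3 (quasi-likelihood, legacy=FALSE), with 1 coefficient per group and all 42 libraries sharing 1 estimate of spread, so p-values measure the spread between rats. The SE is the log2 difference over the square root of F. Rats carry the tags of their labels, which are not shared between groups. The code was tested on simulated data. Alternatives were RLE (relative log expression) scaling, no filter, DESeq2 1.42.0, voom of limma 3.58.1, legacy=TRUE, the 4 groups alone, the ribosomal share as covariate or its symbols removed, and leaving out each rat.

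Named genes included the 12 largest rises and falls and the 6 smallest p in each direction. These picks had a mean log2 CPM of at least 1. Also named were up to 4 members of each described list (38 of 41 lists) and a panel. List members could lie below that level, as Cpa3 (0.83) and Ctla4 (0.55) did. Of 571 listed symbols 517 were tested. One called list member is counted but not reported here by name. The members, lists and rules were chosen with earlier results of these data known.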

Additional observations from a re-analysis of the deposited data

Results flagged for a closer look

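Among 268 groups of 4 to 6 rats, for the levels of 66 genes and the ribosomal share, 13 held 1 rat farther from the rest than Dixon's 95% limit; chance alone flags about 1 in 20. Silica rat 46 of 3 months stood high for 4 genes: Retnla (131.3 CPM, the others 40.1 to 66.1), Slc26a4 (181 CPM, the others 86.7 to 110.99), C2 (206 CPM, the others 120.2 to 141.4) and Kng1 (9.05 CPM, the others 4.07 to 5.33). Air rat SO_09_111 of 9 months was high for Kng1 (14.2 CPM, the others 2.23 to 3.77) and low for C2cd4b (0.889 CPM, the others 2.34 to 2.90). Among air rats of 3 months, rat 42 was high for Spp1 (3.27 CPM, the others 2.43 to 2.55) and low for Ciita (29.1 CPM, the others 33.8 to 34.4), rat 40 was high for Abca1 (635 CPM, the others 487 to 502.5), and rat 41 was low for Postn (639 CPM, the others 670.4 to 676). Silica rat 45 of 3 months was high for C2cd4b (20.2 CPM, the others 8.73 to 11.3) and low for Plk1 (2.96 CPM, the others 3.85 to 4.2), and silica rat 47 was low for Cd86 (6.51 CPM, the others 9.60 to 10.5).

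The silica effect differed between 9 and 3 months for 1068 genes by the test of the difference itself. For the ribosomal RNA share the difference of differences was 2.73 percentage points, with the limit of its permutation test given above.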

How the results depend on the processing

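No paired analysis was possible because the rats' tags are not shared between groups. The counts of 584 genes upward and 484 downward moved by less than 1.5 times under RLE scaling, no filter, DESeq2, limma voom, legacy=TRUE and removal of the ribosomal symbols; without the filter 395 of the 584 and 383 of the 484 were still called, with limma voom 551 and 419. The 4 regular-diet groups alone gave 255 and 216, and the ribosomal share as covariate 50 and 27. Of the called genes, 1065 were tested in the 4-group model, and 1065 kept their sign. The median size of their change went from 0.485 to 0.484 and its median SE from 0.122 to 0.133. The cause of the lower counts was not tested. Leaving out each rat gave 298 to 746 upward and 303 to 787 downward. Upward counts moved by more than 1.5 times without air rats 40 (382) and 42 (298) and silica rat 47 (376) of 3 months, downward counts without silica rat 43 of 3 months (787) and silica rats SO_09_117 (303) and SO_09_118 (307) of 9 months. At 9 months the covariate lowered the genes below air from 3229 to 2144, and leaving out rats gave 3129 to 3661 upward and 2774 to 3682 downward. At 3 months leaving out rats gave 1277 to 1969 upward and 605 to 1360 downward, with 719 without air rat 41 and 605 without silica rat 46 against 1080. The difference between diets gave 4 and 8 genes with DESeq2, 4 and 7 with limma voom, and 0 to 4 and 0 to 3 when a rat was left out. With the covariate, Rnr1, which is part of it, turned from 2.29 to -0.55 for the change and from 1.92 to -0.34 at 9 months. The ribosomal share changed by 2.31 to 3.00 percentage points when a rat was left out. Of the 98 called named genes, 55 were called in all 20 fits without 1 rat, 59 in the 4-group model and 24 with the covariate. Groups of 4 to 6 rats and library totals of at most 8258098 counts limit the precision for genes of few counts.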

Other observations

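Interferon response genes, which cells raise against viruses, had 3 of 21 tested members with a higher silica effect at 9 months. None had a lower one, and the median change was 0.22. Over all genes tested 3.71% had a higher effect. Bst2, the membrane tether tetherin, changed by 1.01 ± 0.22 (adjusted p = 0.00359). It was at 16 to 49.3 CPM in air and 49.1 to 87 CPM with silica at 9 months, with overlapping groups at both times, and with the ribosomal share as covariate its change was 0.28 (adjusted p = 0.68). Stat2, a transcription factor of that response, changed by 0.30 ± 0.09 (adjusted p = 0.0359), and Gbp2, a guanylate-binding protein, by 0.40 ± 0.12 (adjusted p = 0.0366). Fits without 1 rat lost the call of Stat2 in 13 of 20 and of Gbp2 in 11 of 20, and gave 1 to 4 called genes of the list. Of the 3 genes, 1 was called in the 4-group model and 0 with the ribosomal share as covariate.

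Csf1, the growth factor of macrophages, changed by 0.58 ± 0.15 (adjusted p = 0.0131; 0.065 without air rat 40 of 3 months), and Ccl6, a chemokine of macrophages, by -0.54 ± 0.14 (adjusted p = 0.0162). Among clock genes Tef changed by -0.54 ± 0.14 (adjusted p = 0.0183) and Npas2 by 0.50 ± 0.14 (adjusted p = 0.022; 0.0935 without air rat 42 and 0.0536 without silica rat 47 of 3 months); the hour of sampling is not given in the sources used here.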
